A study of Mus musculus with 33 samples.

Results

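The MHC class I antigen presentation genes are 10 genes that build the class I molecule and supply it with peptide, and they were taken by name, with earlier results of these data known, from the 41565 named genes of 1 table of normalized bulk RNA-seq expression. Bulk RNA was sequenced from the posterior hypothalamus (PH) and the preoptic area (POA) of adult WT C57BL/6 female mice that were intact, 14 days after ovariectomy (OVX) or 4 months after OVX. There were 4, 6 and 6 libraries of these groups from the PH and 5, 6 and 6 from the POA, 33 in all. Per the paper, OVX was done at 3 to 4 months of age, so that the mice of the latest group were 7 to 8 months old when killed. The intact mice, which the sample titles call sham, were killed in diestrus before OVX, per the paper, and no intact group of the age reached at 4 months after OVX was included, so that time after OVX and age cannot be told apart. For 1 POA library of the 14-day group, the label that should name the group holds only a number, and its title gave the group. Nothing in the labels states which libraries came from the same mouse, so the *P* values measure the spread between these libraries.

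Class I molecules carry short peptides from inside the cell to its surface, where CD8 T cells and NK cells read them. Each molecule is a heavy chain, in this strain from *H2-K1* or *H2-D1*, paired with the light chain β2-microglobulin from *B2m*. Peptides are cut by the proteasome, whose catalytic subunits are exchanged for those of the immunoproteasome (*Psmb8*, *Psmb9* and *Psmb10*) when interferon acts, pumped into the endoplasmic reticulum by the transporter of *Tap1* and *Tap2*, and loaded with the help of tapasin (*Tapbp*). *Nlrc5* encodes the transactivator that drives most of these genes. In the healthy brain, class I expression is low in neurons and found mainly in endothelial cells and microglia, and it is a common readout of interferon signaling.

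Of these genes, 7 lie in the MHC on chromosome 17, where they span 1.352 Mb (GRCm39), whereas *B2m* is on chromosome 2, and *Psmb10* and *Nlrc5* are on chromosome 8. Promoter windows from RefSeq, 250 bases before to 50 after the transcription start, were listed for 8 of the 10 genes, not for *Tap2* or *Nlrc5*, and each occurred exactly once in GRCm39. The windows below are those of both heavy chains and the light chain, which form the molecule itself, and of *Psmb8* and *Psmb9*, which had the smallest *P* values. All are written 5′ to 3′ on the strand of the gene. Capitals mark the letters found by searching both strands for AANNGAAA (the core read by interferon regulatory factors), GGATTCCCC (the NF-κB site known from class I promoters), TGACGC (a core of the X2 box) and CCAAT (the site of NF-Y). The windows are H2-K1 (chr17:34219272-34219571, minus strand), H2-D1 (chr17:35481820-35482119, plus strand), B2m (chr2:121977918-121978217, plus strand), Psmb8 (chr17:34416919-34417218, plus strand) and Psmb9 (chr17:34406255-34406554, minus strand).
H2-K1: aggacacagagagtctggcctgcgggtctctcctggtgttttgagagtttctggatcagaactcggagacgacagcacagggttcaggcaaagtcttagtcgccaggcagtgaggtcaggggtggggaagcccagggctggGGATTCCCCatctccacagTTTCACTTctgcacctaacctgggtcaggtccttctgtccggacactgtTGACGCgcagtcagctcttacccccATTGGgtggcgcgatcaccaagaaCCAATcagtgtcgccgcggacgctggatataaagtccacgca
H2-D1: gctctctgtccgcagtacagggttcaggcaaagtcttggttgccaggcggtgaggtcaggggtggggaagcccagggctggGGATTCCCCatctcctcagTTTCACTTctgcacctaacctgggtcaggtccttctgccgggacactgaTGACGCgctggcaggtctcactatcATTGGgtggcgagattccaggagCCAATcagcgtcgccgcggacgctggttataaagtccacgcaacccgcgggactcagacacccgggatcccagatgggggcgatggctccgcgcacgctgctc
B2m: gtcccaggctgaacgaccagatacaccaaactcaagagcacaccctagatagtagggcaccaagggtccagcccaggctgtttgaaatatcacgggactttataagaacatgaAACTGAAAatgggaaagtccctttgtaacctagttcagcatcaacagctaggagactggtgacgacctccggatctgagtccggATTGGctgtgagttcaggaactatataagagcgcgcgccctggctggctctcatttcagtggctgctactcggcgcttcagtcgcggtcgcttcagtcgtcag
Psmb8: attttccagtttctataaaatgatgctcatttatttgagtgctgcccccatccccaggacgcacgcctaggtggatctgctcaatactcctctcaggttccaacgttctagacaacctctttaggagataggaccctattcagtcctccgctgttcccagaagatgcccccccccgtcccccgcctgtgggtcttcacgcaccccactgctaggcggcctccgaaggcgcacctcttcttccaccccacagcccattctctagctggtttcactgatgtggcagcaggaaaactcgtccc
Psmb9: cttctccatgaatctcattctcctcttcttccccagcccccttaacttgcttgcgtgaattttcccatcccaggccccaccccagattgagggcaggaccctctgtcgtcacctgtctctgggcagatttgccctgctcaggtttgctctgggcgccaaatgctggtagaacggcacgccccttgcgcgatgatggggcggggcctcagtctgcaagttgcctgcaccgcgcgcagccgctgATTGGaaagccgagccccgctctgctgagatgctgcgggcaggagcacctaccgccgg

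*H2-K1* and *H2-D1* shared the same order of letters. In both, GGATTCCCC was followed by TTTCACTT (AANNGAAA on the other strand), TGACGC and CCAAT, with the NF-κB letters starting 109 and 169 bases before the listed start. GGATTCCCC occurred in 74 of 27025 RefSeq promoter windows (0.274%), TGACGC in 7.5%, AANNGAAA in 24.2% and CCAAT in 37.9%. *B2m* held AANNGAAA 137 bases before its start and no GGATTCCCC. Of the 8 members listed, 3 held AANNGAAA and 6 held CCAAT. The window of *Psmb8* held none of the letters searched. *Tap1* and *Psmb9* are transcribed away from each other with 225 bases between their listed starts, so their windows overlap. Such matches describe letters and no binding was measured here.

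All 10 members were expressed above 2 times the floor of the table (22.2, the value at which genes without measurable expression lie) in enough libraries of both regions to be tested. The values are linear and normalized but not per transcript length, so levels are compared between groups and not between genes, and differences are given on the log2 scale. Because of the floor, fold changes of genes near it, such as *Psmb9* and *Nlrc5*, are understated. Depth in reads is unknown. Each group has libraries of 2 batches, as the labels name them. The library with the highest sum of deposited values, PH 14 days after OVX replicate 5, stood apart in the first surrogate variable (SV1, a latent factor that served as covariate) at 0.79, against 0.19 for the next highest PH library. It was the lowest of its group for 6 of 10 members and the highest for *B2m*. Replicate 6 at 14 days (highest of its group for 8 members in PH tissue and for 9 in POA tissue) and replicate 5 at 4 months (9 and 8) also stood apart, both in batch 2.

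**Figure D1:**
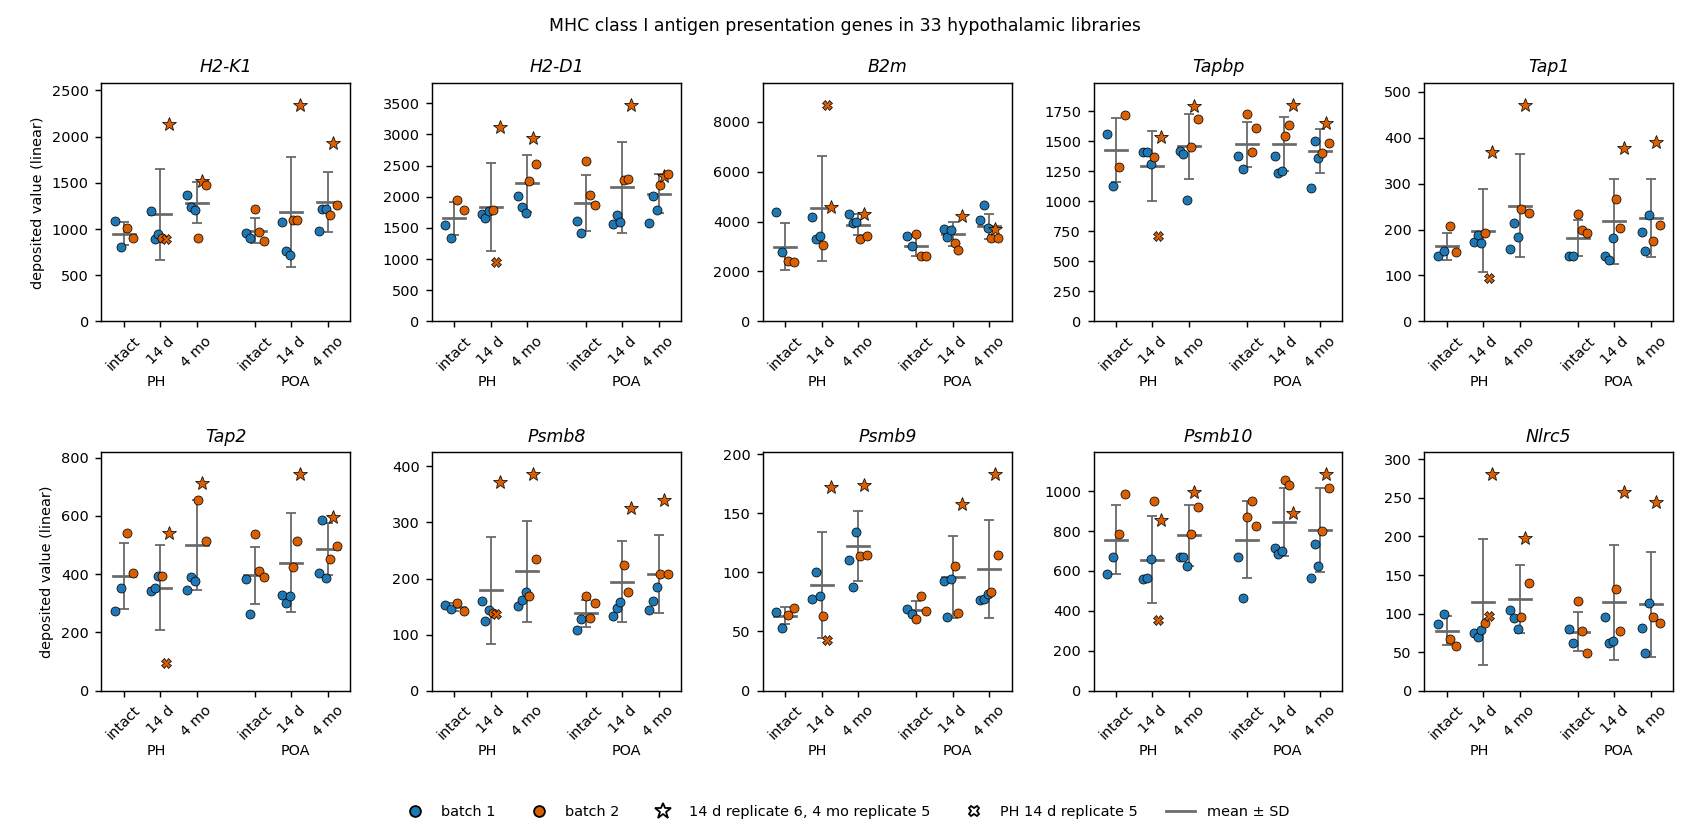
Deposited normalized value (linear axis from 0) of each gene in each of 33 libraries, by region and group, with the mean ± SD as bars, batch by color, the highest libraries as stars and PH 14 days replicate 5 as a cross. For *Psmb9* in the PH, all 6 libraries at 4 months lie above all 4 intact libraries, and for *Tapbp* all groups overlap.

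At 4 months after OVX, most class I genes were measured at higher mean levels than in intact mice in both regions, but no member passed the test across all genes. In the PH, 8 of 10 log2 fold changes were positive, from −0.014 for *Psmb10* to 0.89 for *Psmb9*, with a median of 0.41 beside −0.0093 over all 21949 genes tested. In the POA, 9 of 10 were positive, from −0.0045 for *Tapbp* to 0.66 for *Psmb8*, with a median of 0.40 beside −0.011 over 21317 genes. In limma with Benjamini-Hochberg adjustment, 0 of 10 members were called at an adjusted *P* under 0.05 in the PH, where 0.0319% of all genes were called, and 0 of 10 in the POA, where 0.0938% were called. At an unadjusted *P* under 0.05, 4 members were higher in the PH (*Psmb9*, *B2m*, *H2-D1* and *Tap1*) and 7 in the POA (*Psmb8*, *B2m*, *Psmb9*, *Tap2*, *H2-K1*, *H2-D1* and *Tap1*), and none was lower. That level was reached with a higher mean by 2.95% of all genes for the PH, and for the POA by 4.1%.

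At 14 days after OVX the differences from intact mice were smaller in the median. In the PH, 8 of 10 were positive with a median of 0.27 (all genes, −0.0018), and in the POA all 10 were positive with a median of 0.26 (all genes, −0.0059). The adjusted test called 0 of 10 members in either region, beside 0% (PH) and 0.00469% (POA) of all genes. At an unadjusted *P* under 0.05, 2 members were higher in the PH (*B2m* and *Psmb9*; 1.56% of all genes) and 4 in the POA (*Psmb8*, *Psmb10*, *H2-D1* and *Psmb9*; 2.83% of all genes). With batch in place of SV1, or with no covariate, the PH median was 0.16. These 14-day medians leaned on a single library. Without replicate 6 at 14 days, the PH median was 0.056 and the POA median 0.15, whereas without PH replicate 5 it was 0.28. The 4-month medians without replicate 5 at 4 months were 0.30 (PH) and 0.31 (POA). The POA median at 4 months was 0.34 with batch in place of SV1 and 0.32 with no covariate. Within batches 1 and 2 it was 0.26 and 0.24, beside 0.10 and 0.35 at 14 days, so the order of the times was reversed in batch 2. The PH medians within batches were 0.24 and 0.52 at 4 months, beside 0.077 and 0.15 at 14 days. Both time points were compared with the same intact libraries.

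**Figure D2:**
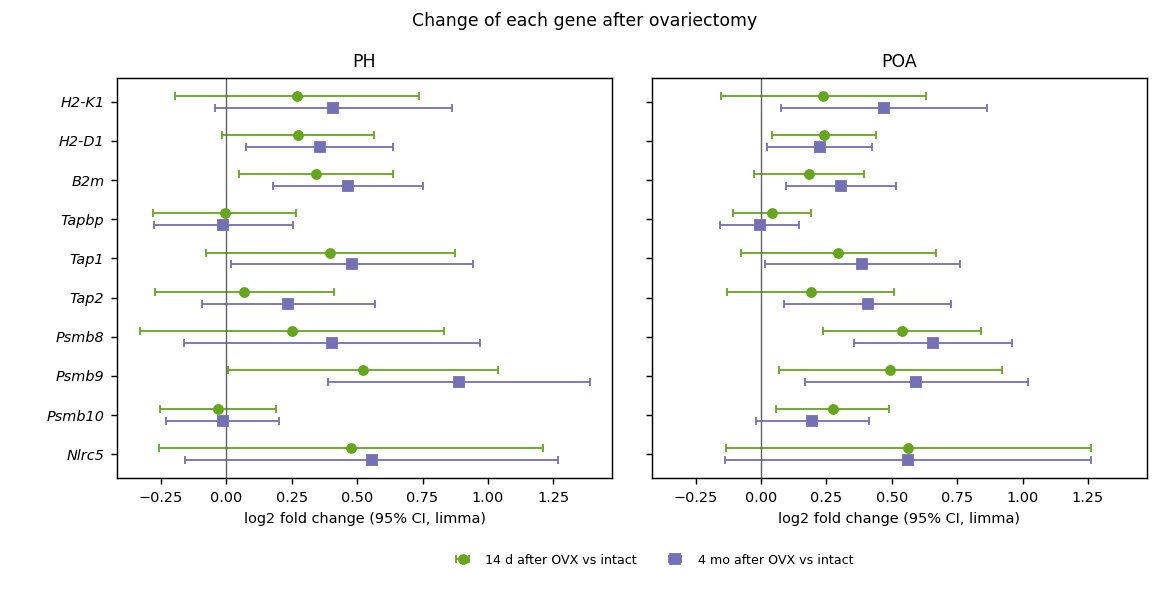
Log2 fold change of each gene against intact mice (horizontal axis) with its 95% confidence interval from limma, at 14 days (circles) and 4 months (squares) after OVX, in the PH (left) and POA (right). *Psmb9* (PH) and *Psmb8* (POA) lie farthest from 0 at 4 months relative to their intervals, *Tapbp* lies at 0 in both regions, and no gene passed the adjusted test.

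The immunoproteasome subunits held both the largest and some of the smallest differences. *Psmb9* encodes β1i, the subunit that replaces the caspase-like site of the constitutive proteasome. In intact PH its values, here and below in order of replicate number, were 66.3, 52.8, 64.1 and 69.8. The lowest, median and highest values were 43.1, 79.0 and 172 at 14 days and 87.5, 114 and 174 at 4 months. Every library at 4 months thus lay above every intact library, which held for 0.551% of all genes and for this 1 of the 10 members, and 4 of 6 libraries did so at 14 days. The log2 fold change at 4 months was 0.89 (SE 0.24, 95% CI 0.39 to 1.39), which did not pass the adjusted test (unadjusted *P* = 0.00151, adjusted *P* = 0.405). It was 0.88 within batch 1 and 0.98 within batch 2, and 0.81 without the 2 highest libraries.

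In intact POA, *Psmb9* was measured at 69.1, 64.7, 60.5, 79.9 and 67.4. Its lowest, median and highest values were 61.9, 93.1 and 158 at 14 days and 76.8, 82.6 and 183 at 4 months. The groups overlapped, and in each OVX group 4 of 6 libraries lay above every intact one. The log2 fold change at 4 months was 0.59 (SE 0.20, 95% CI 0.17 to 1.02), with unadjusted *P* = 0.00894, adjusted *P* = 0.383, and it was 0.23 within batch 1 and 0.81 within batch 2.

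*Psmb8*, which encodes β5i, the subunit with chymotrypsin-like activity, had the smallest *P* value of all members, in the POA. Intact POA libraries held 107, 128, 169, 129.8 and 156. Its lowest, median and highest values there were 133, 167 and 326 at 14 days and 144, 196 and 340.0 at 4 months. The groups overlapped, with 3 of 6 libraries at 14 days and 4 of 6 at 4 months above every intact library. The log2 fold change was 0.66 (SE 0.14, 95% CI 0.36 to 0.96) at 4 months (unadjusted *P* = 2.1e-04, adjusted *P* = 0.110) and 0.54 (SE 0.14, 95% CI 0.24 to 0.84) at 14 days (unadjusted *P* = 0.00137, adjusted *P* = 0.673). Within batches the 4-month difference was 0.47 and 0.70, and without the 2 highest libraries it was 0.51, with an adjusted *P* of 0.0857 in limma. These libraries were picked by the members' own values after the data had been seen, and leaving them out can narrow the spread. That *P* is therefore not read as stronger than the one from all libraries.

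Intact PH libraries held *Psmb8* within a narrow range, at 153, 145, 156 and 141. Lowest, median and highest values were 124, 141 and 372 at 14 days and 151, 173 and 387 at 4 months. At 14 days, 2 libraries lay above and 3 below every intact library, and at 4 months 5 of 6 lay above. The 4-month log2 fold change of 0.40 (SE 0.27, 95% CI −0.16 to 0.97) did not pass the test even before adjustment (unadjusted *P* = 0.151 in limma), and it was 0.12 within batch 1 and 0.74 within batch 2.

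*Psmb10* encodes β2i, with trypsin-like activity, and was close to its intact level in the PH. Its PH means ± SD were 757 ± 173 in intact mice, 657 ± 217 at 14 days and 778 ± 152 at 4 months. The groups overlapped widely, and the 4-month log2 fold change was −0.014 (SE 0.10, 95% CI −0.23 to 0.20). In the POA the means ± SD were 757 ± 193, 846 ± 169.9 and 805 ± 209, with a log2 fold change of 0.27 at 14 days (unadjusted *P* = 0.0151, adjusted *P* = 0.799) and 0.20 at 4 months (unadjusted *P* = 0.0709, adjusted *P* = 0.638).

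The heavy chains were higher on average at 4 months in both regions, with overlap. *H2-K1* was measured at 1090.1, 801, 1014 and 898 in intact PH. As lowest, median and highest, the values were 889.5, 920.2 and 2132 at 14 days and 904, 1304 and 1523 at 4 months. At 14 days most libraries lay within the intact range and replicate 6 lay far above it, whereas at 4 months 5 of 6 libraries lay above every intact library. The 4-month log2 fold change was 0.41 (SE 0.21, 95% CI −0.045 to 0.86), with unadjusted *P* = 0.0742, adjusted *P* = 0.843, and the within-batch differences were 0.44 and 0.41.

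In the POA, intact libraries held *H2-K1* at 955, 906, 1218, 971 and 866. Values ran as lowest, median and highest from 714, 1084 and 2344 at 14 days and 981, 1217 and 1933 at 4 months. At 14 days 1 library lay above and 2 below the intact range, and at 4 months 3 of 6 lay above it. The log2 fold change was 0.24 at 14 days and 0.47 (SE 0.19, 95% CI 0.075 to 0.86) at 4 months (unadjusted *P* = 0.0226, adjusted *P* = 0.491), and the 14-day difference was 0.00157 without the highest libraries.

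*H2-D1*, the other classical heavy chain, was measured at 1545, 1338, 1945 and 1794 in intact PH. Its lowest, median and highest values were 954, 1747 and 3120.4 at 14 days and 1734, 2128 and 2939.7 at 4 months. In the 4-month group 4 of 6 libraries lay above every intact library, and the log2 fold change was 0.36 (SE 0.13, 95% CI 0.074 to 0.64) (unadjusted *P* = 0.0161, adjusted *P* = 0.693). Intact POA libraries held 1610.3, 1414, 2569, 2036 and 1865. The lowest, median and highest POA values were 1566, 1985 and 3474 at 14 days and 1579.8, 2102 and 2362 at 4 months, and the 4-month log2 fold change was 0.22 (SE 0.096, 95% CI 0.025 to 0.42) (unadjusted *P* = 0.0297, adjusted *P* = 0.521). No POA library at 4 months exceeded the highest intact one, replicate 3. Reads of the heavy chains are hard to assign, since 38.3% of the 31-base words in *H2-K1* transcripts and 44.7% of those in *H2-D1* transcripts occur in transcripts of other genes (GENCODE M39), 577 of them in both, so their values are uncertain against each other and against other class I genes.

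*B2m*, whose product stabilizes every class I heavy chain at the surface, shared no 31-base word with any other gene. In intact PH it was measured at 4394, 2774, 2431 and 2398. Its lowest, median and highest values were 3059.6, 3804 and 8678 at 14 days, where the highest was replicate 5, and 3298, 3948 and 4323 at 4 months. Every library at 4 months lay above 3 of the 4 intact libraries, and none lay above intact replicate 1. The summed level of 5 choroid plexus markers ran from 2243 to 83022 over all libraries. It was highest of its group, at 58961 and 76389, in the intact and the 4-month PH library with the highest *B2m* (both replicate 1), and second highest, at 33982, in replicate 5 at 14 days. Other PH libraries did not match in this way. The highest sum at 14 days, 41378 in replicate 1, went with rank 3 of the group for *B2m*. The second highest sums of the intact and 4-month groups, 26336 and 27624 (both replicate 4), went with the lowest *B2m* of each group. The part of choroid plexus in these values was not tested. The log2 fold change was 0.46 (SE 0.14, 95% CI 0.18 to 0.75) at 4 months (unadjusted *P* = 0.00325, adjusted *P* = 0.510) and 0.34 at 14 days (unadjusted *P* = 0.0250, adjusted *P* = 0.9998). The 14-day value was 0.048 within batch 1 and 1.04 within batch 2, which holds replicate 5. It was 0.54 with batch in place of SV1 and 0.20 without the 2 libraries highest for most members (replicate 6 at 14 days and replicate 5 at 4 months).

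Intact POA libraries held *B2m* at 3423, 3001, 3488, 2616 and 2617. After OVX, the lowest, median and highest values were 2864, 3519 and 4219 at 14 days and 3326, 3721 and 4679.8 at 4 months. Here 3 of 6 libraries at 14 days and 4 of 6 at 4 months lay above every intact library, and all groups overlapped. The 4-month log2 fold change was 0.31 (SE 0.10, 95% CI 0.095 to 0.52) (unadjusted *P* = 0.00695, adjusted *P* = 0.364). The 4-month difference had the same sign within both batches, with PH values of 0.22 and 0.60 and POA values of 0.37 and 0.26.

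Of the transporter subunits, *Tap1* was measured at 143, 153, 208 and 152 in intact PH. The lowest, median and highest values were 94.0, 180.4 and 368 at 14 days and 158, 226 and 472 at 4 months. In the 4-month group 4 of 6 libraries lay above every intact library, and replicate 5 was highest. The log2 fold change was 0.48 (SE 0.22, 95% CI 0.018 to 0.94) (unadjusted *P* = 0.0426, adjusted *P* = 0.7996).

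Intact POA libraries held *Tap1* at 142, 141, 234, 198 and 193. Its lowest, median and highest values there were 134, 192 and 377 at 14 days and 153, 203 and 391 at 4 months, and 1 of 6 libraries at 4 months lay above every intact one. At 4 months the log2 fold change was 0.39 (SE 0.18, 95% CI 0.014 to 0.76) (unadjusted *P* = 0.0428, adjusted *P* = 0.565), and 0.21 without the highest libraries. Of the 31-base words in *Tap1* transcripts, 713 also occur in transcripts of its neighbor *Psmb9* on the opposite strand, which is 17.7% of those of *Psmb9*, so the values of these genes are not fully separate unless the counting used strand, which is not given in the sources used here.

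*Tap2*, the other subunit, had a 4-month log2 fold change of 0.41 (SE 0.15, 95% CI 0.088 to 0.73) in the POA (unadjusted *P* = 0.0151, adjusted *P* = 0.437) and of 0.24 (SE 0.16, 95% CI −0.095 to 0.57) in the PH (unadjusted *P* = 0.151, adjusted *P* = 0.880). PH means ± SD were 393 ± 113 in intact mice (n = 4), 353 ± 146 at 14 days (n = 6) and 499 ± 154 at 4 months (n = 6), and replicate 5 at 14 days was far below the rest at 94.4. POA means ± SD were 397 ± 98.1 (n = 5), 439 ± 169 (n = 6) and 487 ± 89.0 (n = 6). In both regions 2 of 6 libraries at 4 months lay above every intact library. At 14 days in the PH its sign depended on the covariate, with 0.068 with SV1 and −0.28 without it.

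*Tapbp*, the bridge between the empty heavy chain and the transporter, had log2 fold changes close to 0 at both times. PH means ± SD were 1426 ± 267 (n = 4), 1294 ± 294 (n = 6) and 1461 ± 271 (n = 6) in the order intact, 14 days and 4 months, and POA means ± SD were 1478 ± 187 (n = 5), 1476 ± 227 (n = 6) and 1419 ± 181 (n = 6). The 4-month log2 fold change was −0.011 (SE 0.13, 95% CI −0.28 to 0.25) for the PH. For the POA it was −0.0045 (SE 0.072, 95% CI −0.16 to 0.15). The POA interval holds no change of more than 0.16 in either direction. Of its 31-base words, 45.5% occur in transcripts of other genes, among them its neighbor *Zbtb22*.

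*Nlrc5*, the transactivator, was measured at 86.4, 99.96, 67.1 and 57.4 in intact PH. Lowest, median and highest values were 68.9, 83.5 and 281 at 14 days and 80.2, 100.3 and 198 at 4 months. Only replicate 6 lay above the intact range at 14 days, and 3 of 6 libraries did at 4 months. In intact POA it was measured at 79.3, 62.0, 116, 77.3 and 48.5, and the lowest, median and highest values were 61.6, 86.5 and 258 at 14 days and 48.6, 91.4 and 245 at 4 months. Its log2 fold changes were among the larger ones, with a 4-month PH value of 0.55 (SE 0.34, 95% CI −0.16 to 1.27) and a POA value of 0.56 (SE 0.33, 95% CI −0.14 to 1.26), but so was its spread, and it did not pass even the unadjusted test (unadjusted *P* = 0.118 and 0.108 in limma). Within batch 1 its 4-month PH difference was −0.0032 and within batch 2 it was 1.16. The POA difference was 0.13 and 0.74 within the batches, and 0.25 without the highest libraries.

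Between 14 days and 4 months after OVX, the members differed by less than from intact mice in the median. In the PH, 9 of 10 log2 differences (4 months minus 14 days) were positive, with a median of 0.10 and a range from −0.0051 to 0.36, the last for *Psmb9*. This median was 0.0095 without replicate 5 at 4 months, 0.011 without replicate 4 at 14 days, 0.27 without replicate 6 at 14 days and 0.29 without a covariate. In the POA, 6 of 10 were positive, with a median of 0.10, and this median was −0.00769 without replicate 5 at 14 days and −0.00918 without replicate 5 at 4 months. The adjusted limma test called 0 of 10 members in both regions, beside 0.00911% (PH) and 0.0281% (POA) of all genes. No member had an unadjusted *P* under 0.05, beside 2.08% and 2.47% of all genes higher at that level. No member had every library at 4 months above every library at 14 days, beside 0.128% (PH) and 0.0657% (POA) of all genes. Against intact mice, 0 of 10 members had every OVX library above every intact one at 14 days in the PH (0.278% of all genes), at 14 days in the POA (0.263%) and at 4 months in the POA (0.413%). These counts moved with single libraries. Without intact replicate 1 the PH count was 1 at 14 days, beside 1.28% of all genes. At 4 months it was 2 without intact replicate 1 (1.13% of all genes), intact replicate 3 (1.03%), 4-month replicate 1 (0.793%) or 4-month replicate 4 (0.825%). The POA count at 4 months was 1 without intact replicate 3 (0.629%) or 4 (0.661%).

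A single limma fit of the 33 libraries asked whether a gene's change after OVX was of different size in the PH than in the POA. In the fit without blocks, the adjusted limma test called 0 of 10 members at 14 days (0.00453% of 22091 genes) and 0 of 10 at 4 months (0.00905%). The smallest unadjusted *P* of the members was that of *Psmb10* at 14 days. Its PH change was 0.30 below the POA change on the log2 scale (95% CI −0.57 to −0.034, unadjusted *P* = 0.0284, adjusted *P* = 0.99998). The share of all genes with an unadjusted *P* under 0.05 was not computed for this fit, so this value is not read as a difference between the regions. For *Psmb9* at 4 months, the PH change minus the POA change was 0.30 (95% CI −0.37 to 0.98), and for *Psmb8* it was −0.23 (95% CI −0.89 to 0.42). Both intervals include 0 and are wide.

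**Figure D3:**
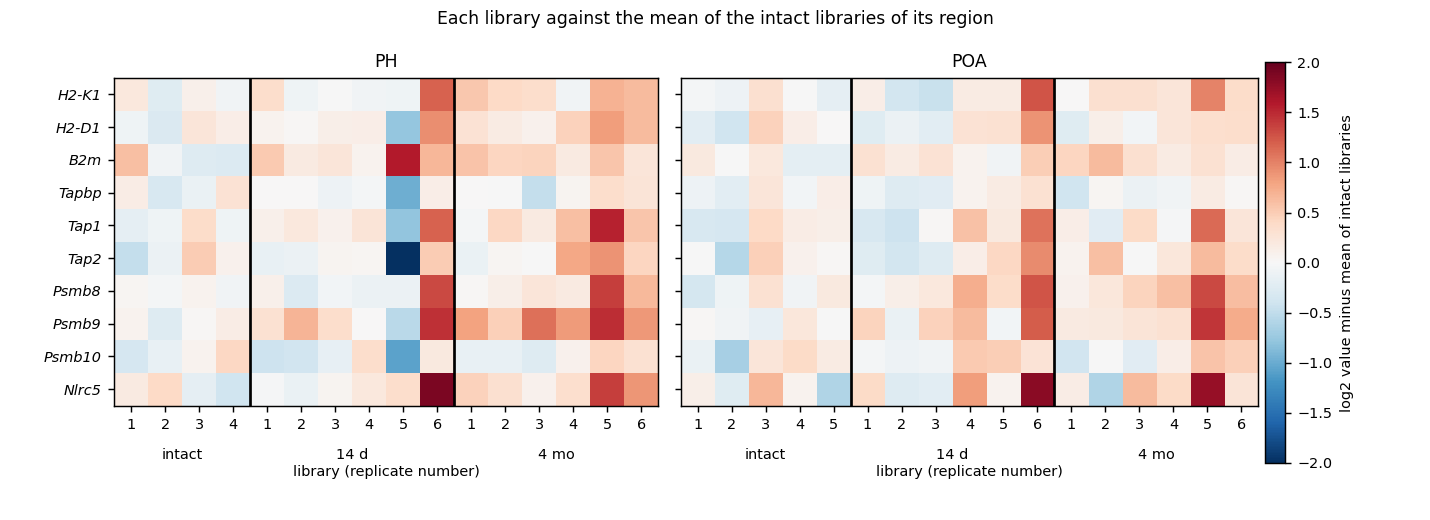
Log2 value of each gene (rows) in each library (columns, by replicate number) minus the mean of the intact libraries of that region, with red for higher and blue for lower. Replicate 6 at 14 days and replicate 5 at 4 months are red across most genes in both regions, and PH replicate 5 at 14 days lies below the intact mean for 8 genes and above it for *B2m* and *Nlrc5*.

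Most members other than *B2m* varied together from library to library. Over 45 pairs of members, the median Pearson *r* of log2 values was 0.63 across the 16 PH libraries (27 pairs over 0.5) and 0.65 across the 17 POA libraries (32 pairs over 0.5). The lowest *r* was −0.66 (PH) and −0.22 (POA), both for a pair with *B2m*. Of the 9 pairs with *B2m*, 5 were negative in the PH, with a median of −0.19, and 2 in the POA, with a median of 0.28. The PH pairs include replicate 5 at 14 days, the highest of its group for *B2m* (8678). It was the lowest of its group for 6 members, among them *Tap2* (94.4), *Psmb10* (352) and *Tapbp* (714). The part of this library in the PH pairs was not tested. The pairs share libraries, batches and, for some, sequence, and no test was made. The libraries with the highest values were high for most members at once. Averaged over the members, replicate 6 at 14 days lay 0.90 (PH) and 0.84 (POA) above the mean of the intact libraries of its region and batch on the log2 scale, and replicate 5 at 4 months lay 0.91 and 0.74 above. The other libraries at 4 months lay 0.22 to 0.50 (PH) and 0.10 to 0.37 (POA) above, and the others at 14 days lay between −0.49 and 0.14 (PH) and between 0.0043 and 0.28 (POA). The intact libraries lay within 0.20 of that mean. It was taken over only 2 or 3 intact libraries, the one measured among them, so this closeness is partly built in. It is no measure of the spread for the OVX libraries.

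Among 21165 genes tested in both regions, the 5 whose levels ran most alike to the mean of the members were *H2-T23* (*r* = 0.90 for PH and 0.93 for POA), *H2-Q6* (0.88 and 0.91), *H2-Q4* (0.88 and 0.88), *H2-Q7* (0.91 and 0.86) and *Irgm2* (0.87 and 0.86), over 16 and 17 libraries. The first 4 are nonclassical class I heavy chains, and transcripts of *H2-Q4* share 408 of the 31-base words of *H2-K1*. *Irgm2* encodes an interferon-inducible GTPase.

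The wider pathway showed no called gene in any comparison. Of 17 other class I heavy chain genes and relatives tested, 0 were called 4 months after OVX in either region, 0 had an unadjusted *P* under 0.05 in the PH, and in the POA 4 were higher (*H2-T24*, *H2-Q4*, *H2-Q6* and *Hfe*) and 2 lower (*H2-Q2* and *H2-M5*) at that level. Of all genes, 2.95% (PH) and 4.1% (POA) were higher and 3.11% and 4.41% lower at that level, which also bears on the counts of the next lists. *H2-Q2* was at −0.49 (unadjusted *P* = 8.3e-04, adjusted *P* = 0.199) and *H2-Q6* at 0.74 (unadjusted *P* = 0.0413, adjusted *P* = 0.560). Among 25 genes of peptide generation and loading, which include the constitutive proteasome, its activators and the chaperones of the endoplasmic reticulum, 0 were called, and at an unadjusted *P* under 0.05 the PH had 1 higher and 1 lower, the POA 1 higher and 4 lower. The median log2 fold change of these genes was −0.029 (PH) and −0.042 (POA). *Psme3*, a proteasome activator subunit, was at −0.19 (unadjusted *P* = 1.9e-04, adjusted *P* = 0.106) in the POA, and *Calr*, which encodes the chaperone calreticulin, was at −0.15 (unadjusted *P* = 0.00841, adjusted *P* = 0.380). *Erap1*, which encodes the peptidase that trims peptides for class I, was at 0.26 (unadjusted *P* = 0.0285, adjusted *P* = 0.752) in the PH.

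Of 24 genes of transcription and interferon input tested, 0 were called at 4 months, 2 were higher and 0 lower in the PH at an unadjusted *P* under 0.05, and 2 were higher and 2 lower in the POA. *Irf1*, the interferon regulatory factor that acts on class I and immunoproteasome promoters, was at 0.64 (unadjusted *P* = 0.00517, adjusted *P* = 0.594) for PH tissue. For POA tissue it was at 0.43 (unadjusted *P* = 0.00569, adjusted *P* = 0.350). *Irf2*, which binds the same sites, was at −0.33 (unadjusted *P* = 0.00117, adjusted *P* = 0.220) in the POA. *Irf8*, a factor of microglia, was at 0.33 (unadjusted *P* = 0.0110, adjusted *P* = 0.398) in the POA. Of the 8 receptors of class I molecules listed, the PH table allowed tests of 4 and the POA table of 5, and none had an unadjusted *P* under 0.05 at 4 months. At 14 days, none of these 4 lists held a called gene in limma.

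Of the cells that can carry class I molecules, endothelial and microglial markers were higher on average at 4 months, but so were those of mural cells and B cells. Median log2 fold changes were 0.28 (PH) and 0.15 (POA) for endothelial, 0.20 and 0.14 for microglial, 0.23 and 0.21 for mural and 0.30 and 0.090 for B cell markers. At an unadjusted *P* under 0.05, 1 of 5 mural markers was higher in each region. Of 3 B cell markers tested, 1 was higher in the PH and 0 in the POA. None of 6 markers of border macrophages and monocytes had an unadjusted *P* under 0.05. The summed level of 8 endothelial markers ran from 8805 to 9464 in intact PH and from 10153 to 13523 at 4 months, without overlap, which held for 0.551% of all single genes. A sum can vary less than a single gene, and no share was computed for sums. The 0.551% is thus not a like background for this sum or for those below. Of the 8, 5 had an unadjusted *P* under 0.05 and were higher (2.95% of all genes), with 0 called. In the POA the sums were 8905 to 9897 in intact mice and 9106 to 12413 at 4 months, with overlap. There 3 of the 8 were higher and 1 lower at an unadjusted *P* under 0.05 (4.1% and 4.41% of all genes), with 0 called. The summed level of 10 microglial markers ran from 13834 to 14819 in intact PH and from 15150 to 17722 at 4 months, without overlap (0.551% of all single genes). In the POA it ran from 13950.2 to 15155 in intact mice and from 15142 to 17219 at 4 months, with overlap. At an unadjusted *P* under 0.05, 5 of the 10 were higher in the PH (2.95% of all genes) and 6 in the POA (4.1%), with 0 called. By library, POA replicate 6 at 14 days had a microglial sum of 15272, under its group median of 15531. Its endothelial sum, 10175, was the highest of its group. PH replicate 6 at 14 days had the highest microglial and endothelial sums of its group, at 16189 and 12440. For replicate 5 at 4 months the microglial sums were 16639 (PH) and 15893 (POA), and the endothelial sums 11938 and 11801. None of these was the highest of its group. Medians of the 6 border macrophage and monocyte markers were 534.2 in intact PH and 540.5 at 4 months, with 497 and 529 in the POA. Medians of the 6 astrocyte markers were 102452 and 102848 in the PH. The sums of the 5 red cell genes were 6507 to 8426 in intact PH and 12094 to 37251 at 4 months, without overlap (0.551% of all single genes). In the POA they overlapped, at 7050 to 16431 and 9569 to 22657. All 5 were higher at 4 months at an unadjusted *P* under 0.05 in the PH (2.95% of all genes) and in the POA (4.1%). In the PH 1 of them, *Alas2*, was called in limma (1.37, unadjusted *P* = 8.2e-06, adjusted *P* = 0.0301), beside 0.0319% of all genes, and in the POA 0 were called (0.0938%). Sums of 8 T cell markers overlapped, at 469.9 to 575 in intact PH and 475 to 603 at 4 months and at 442 to 566 and 446 to 623 in the POA, and *Cd8b1*, which encodes a chain of the class I coreceptor of T cells, was under 2 times the floor in every library, as were 5 of 6 NK cell markers (*Nkg7*, *Klrd1*, *Ncr1*, *Gzma* and *Gzmb*). The part of these cells in the class I values was not tested. In bulk tissue, fewer cells of a type and less RNA per cell cannot be told apart.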

How the data were processed

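Stranded mRNA-seq was measured by the authors, who used kallisto, a mouse transcriptome of build mm39 and DESeq2 with a surrogate variable as covariate, per the labels and the paper. The 1 deposited file holds a normalized signal on a linear scale with a floor of 22.2 for unexpressed genes. These are not counts, and the step that led to them is not given in the sources used here. Depth cannot be recovered, and no interval for counting error is given. The 1259 rows without a gene name were left out.

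Log2 values (pseudocount 0) of genes that reached 2 times the floor in at least 4 PH or 5 POA libraries were fitted with limma 3.58.1 (trend, robust) in R 4.3.3. Each region was fitted by itself, with its 3 groups and SV1 (iteratively reweighted method, 5 rounds). *P* values were adjusted by Benjamini-Hochberg over all genes tested and called under 0.05. The fits were tested on simulated data. The members and gene lists were chosen with earlier results of these data known. All members are named, and of the lists the called genes or those with the smallest *P*. Alternatives were batch or no covariate, SV1 with batch, only the groups compared, a replicate block, single batches, each library left out, a pseudocount of 100, no filter and plain variance estimates. Leaving out the highest libraries together was added after the data had been seen. Promoters came from RefSeq and were placed by exact match in GRCm39. Tables and figures were made with Python 3.11.15, pandas 2.3.3, numpy 2.4.6 and matplotlib 3.10.9.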

Additional observations from a re-analysis of the deposited data

Results flagged for a closer look

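In 7 of 60 groups (10 genes in 6 groups of 4 to 6 libraries), the highest or lowest library lay far from the others by Dixon's criterion. Chance alone meets it in about 1 in 20 independent groups. These groups are not independent, since the genes share libraries and most varied together, so 7 of 60 cannot be read against that rate. Replicate 6 at 14 days was far above the rest of its PH group for *H2-K1* (2132, next 1200.2), *Psmb8* (372, next 159.8) and *Nlrc5* (281, next 97.2). The POA library of the same number was far above its group for *H2-K1* (2344, next 1097). Replicate 5 at 4 months was far above the rest of its POA group for *H2-K1* (1933, next 1264). PH replicate 5 at 14 days, the library with the highest sum of values, was far below its group for *Tapbp* (714, next 1312) and *Tap2* (94.4, next 343).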

How the results depend on the processing

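No member was called under any setting run. Of the members' log2 fold changes against intact mice, 416 of 440 kept their sign under other settings and 636 of 660 when 1 library was left out. The 440 include the plain variance estimates, which cannot change a log2 fold change. The 660 include libraries of the group not compared, which act only through the adjustment for SV1. Both counts thus hold outcomes that were fixed or nearly so. The cause of the changes of sign was not tested. At 14 days in the PH, *Tapbp* was 0.0014 with SV1 and batch together, 0.021 with the replicate block, 0.054 in batch 1 only and 0.0010 without a filter. *Tap2* was −0.28 with batch in place of SV1 or no covariate and −0.78 in batch 2 only. *Psmb8* was −0.078 in batch 1 only and −0.060 without the 2 highest libraries, *Nlrc5* −0.32 in batch 1 only and *H2-D1* −0.096 in batch 2 only. At 4 months in the PH, *Tapbp* was 0.032 with batch or no covariate and 0.14 in batch 2 only, *Psmb10* was 0.046 with batch or no covariate, 0.063 in batch 1 only and 0.029 in batch 2 only, and *Nlrc5* was −0.0032 in batch 1 only. In the POA, *H2-K1* at 14 days was −0.15 in batch 1 only, and *Tapbp* was −0.00663 without a covariate and −0.036 in batch 1 only at 14 days, and 0.027 with SV1 and batch and 0.055 with the replicate block at 4 months.

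With 1 library left out, *Tapbp* ranged from −0.11 to 0.16 (PH, 14 days), −0.11 to 0.12 (PH, 4 months), −0.00258 to 0.071 (POA, 14 days) and −0.049 to 0.023 (POA, 4 months). *Psmb10* in the PH ranged from −0.090 to 0.034 at 14 days and −0.064 to 0.060 at 4 months, *Tap2* at 14 days in the PH from −0.00277 to 0.17 and *Psmb8* there from −0.036 to 0.38. Between 4 months and 14 days, the members' median in the POA ranged from −0.00918 to 0.21 and was −0.068 in batch 2 only, and in the PH it was 0.48 in batch 2 only. The number of members above without overlap was higher with fewer libraries. Against intact mice in the PH it was 3 in batch 1 and 2 in batch 2 at 14 days (9.59% and 9.32% of all genes; 0 to 1 members with 1 library left out), and 4 and 6 at 4 months (7.19% and 11% of all genes; 1 to 2 members). In the POA it was 2 and 1 at 14 days (13.3% and 4.93%), and 6 and 2 at 4 months (9.96% and 5.67%; 0 to 1 members). Between the times it was 2 in batch 1 in each region (4.66% in the PH, 4.81% in the POA).

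Between groups, libraries of the same number and batch correlated above 0.1 in 9 of 12 PH pairs and 13 of 14 POA pairs, with medians of 0.19 and 0.26. Those of the same batch and different number did so in 17 of 30 PH pairs and 32 of 34 POA pairs, with medians of 0.14 and 0.26. The replicate numbers were therefore not taken to pair the libraries of a region. Of the PH libraries, 10 of 16 correlated best with the POA library of the same group and number, a hint from the data only. With a replicate block, 0 members were called, and the medians were 0.17 (PH, 14 days), 0.24 (PH, 4 months), 0.30 (POA, 14 days) and 0.43 (POA, 4 months).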
